A study of Mus musculus with 2 samples.

Results

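The genes described here encode the transcriptional co-activators YAP (Yap1) and TAZ (Wwtr1), the 4 TEAD factors through which they reach DNA (Tead1, Tead2, Tead3 and Tead4), and 4 well known target genes (Ctgf, Cyr61, Ankrd1 and Amotl2). They were chosen by name, and all 10 were found among the 22350 protein-coding genes of the annotation, where Ctgf and Cyr61 are the older symbols of Ccn2 and Ccn1. The readout was the peaks of DNaseI-seq, an assay in which nuclei are digested lightly with DNaseI and places where the enzyme cuts often are called as peaks of open chromatin. A peak was counted for a gene when it overlapped the gene body or lay within 50 kb of it on mouse assembly mm9. By this rule 35 of 17784 vehicle peaks and 55 of 22600 TGFb2h peaks belonged to the 10 genes, and no peak was near more than 1 of them.

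The cells were NMuMG, a line of normal mouse mammary gland epithelium for which the labels name no engineered allele. All cells were first kept for 6 h in medium without serum and insulin. They then received either the carrier solution (vehicle) or TGFβ1 at 5 ng/ml (TGFb2h) for 2 h. Each condition had 1 deposited peak list, so the spread between replicates is unknown, no test between conditions was made, and every difference given is one between these lists. Epithelial genes Cdh1, Krt8 and Krt18 had a peak within 1000 bp of their start in both lists, while Epcam, another epithelial marker, had none in either. The leukocyte gene Ptprc and the endothelial gene Pecam1 had none.

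YAP and TAZ do not bind DNA themselves. When the Hippo kinases are active they phosphorylate both proteins and keep them in the cytoplasm, and when the kinases are quiet YAP and TAZ enter the nucleus and bind TEAD factors on the DNA word CATTCC. In epithelial cells the pathway is known for reading cell density and tension, and it meets the TGFβ pathway through contacts of TAZ and YAP with SMAD proteins.

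Of the 10 genes 8 had more peaks in the TGFb2h list, Yap1 and Tead2 had equal numbers, and none had fewer. The split depended on the setting, with 5 having more and 2 fewer when the TGFb2h list was held to the length of the vehicle list by score, and 4 more and 4 fewer when every deposited row of a repeated interval was counted. The median gene of the 10 had 3 vehicle and 5 TGFb2h peaks, where the median protein-coding gene had 2 in each, or 3 in each among the 17299 with a peak in either list. Over all protein-coding genes, 33.7% had more peaks in the TGFb2h list by the same rule, 53.1% had equal numbers and 13.2% had fewer. Genes without any peak count as equal there, and among the 17299 genes with a peak in either list, as all 10 here had, 43.5% had more, 39.4% had equal numbers and 17.1% had fewer. Peaks that overlapped no peak of the opposite list are termed vehicle-only or TGFb2h-only. The term is about the calling of peaks, and signal too weak to be called may have been present in the opposite condition.

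Of the 55 TGFb2h peaks near the 10 genes 22 were TGFb2h-only, a share of 40.0% (Wilson 95% interval 28.1 to 53.2), beside 33.7% of the whole TGFb2h list. Of the 35 vehicle peaks 5 were vehicle-only, 14.3% (6.26 to 29.4), beside 17.6% of the whole vehicle list. Both shares were near their backgrounds. Of the 22 TGFb2h-only peaks 20 were distal, meaning more than 1000 bp from the start of any annotated transcript, as were 85.7% of all TGFb2h-only peaks. Among distal peaks 20 of 36 TGFb2h peaks and 4 of 19 vehicle peaks were condition-only, beside 55.3% and 31.6% of all distal peaks in the respective lists. Counted by gene, 8 of the 10 had at least 1 TGFb2h-only peak, beside 40.5% of protein-coding genes and 52.4% of those with a peak in either list. At least 1 vehicle-only peak was found for 4 of the 10, beside 25.9% and 33.5%. The intervals cover the counting of peaks only, and peaks of 1 gene are not independent of each other.

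**Figure D1:**
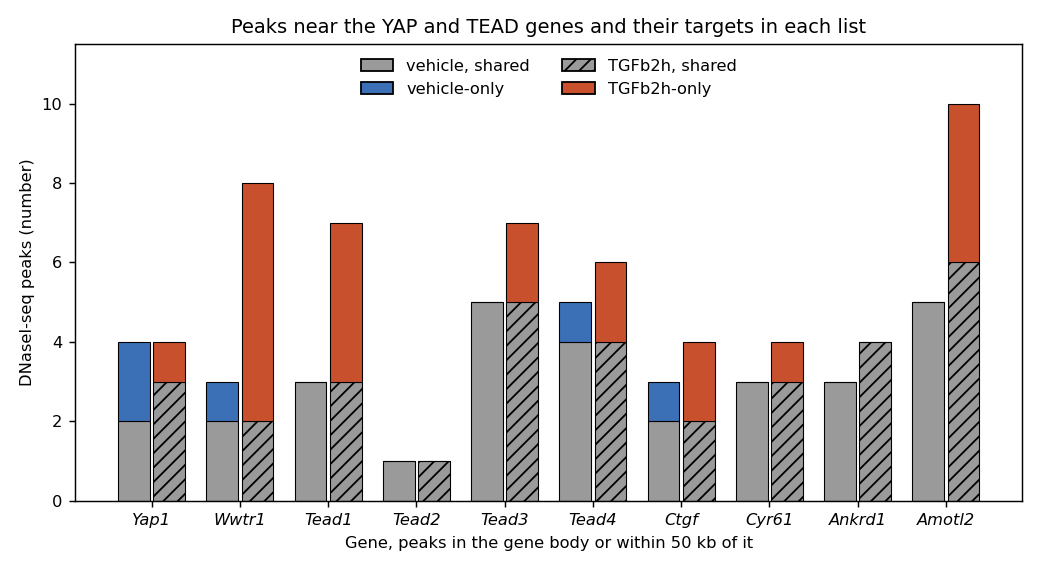
Number of DNaseI-seq peaks (vertical axis) in the gene body or within 50 kb of each of the 10 genes, with vehicle as the left and TGFb2h as the right bar of each pair and condition-only peaks in colour. Wwtr1 and Amotl2 each had 5 more peaks in the TGFb2h list, Ankrd1 had 1 more without a TGFb2h-only peak, and Yap1 and Tead2 stood level.

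Yap1, the gene of YAP, is 72.6 kb long and lies on the minus strand of chromosome 9. It had 4 vehicle and 4 TGFb2h peaks, but these were not all the same places. At the gene start the vehicle list had a single peak of 1575 bp, chr9:8003413-8004987, with a score of 1000, the highest value the score takes. In the TGFb2h list 2 shorter peaks covered the ends of that interval, chr9:8003355-8003835 with a score of 792 and chr9:8004533-8005019 with a score of 1000. They were 481 and 487 bp long and left the middle uncovered. The deposited score is a whole number from 540 to 1000 in both lists, and it ranks peaks within a list but was not scaled between lists.

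The TGFb2h-only peak of Yap1, chr9:7965804-7966261, lay in an intron beside the start of an annotated shorter Yap1 transcript, 38.6 kb into the gene, and its score of 548 exceeded that of only 1.6% of TGFb2h peaks. The vehicle-only peaks were at -13.1 kb, before the start, with a score of 680 (chr9:8017613-8017878), and at +106.7 kb, beyond the end of the gene and nearer to Birc3, with a score of 676 (chr9:7897560-7898136). The last Yap1 peak was shared and sat at -38.1 kb by the start of 9230110C19Rik. Within the Yap1 gene itself, the start was the only place called as open in both lists.

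Wwtr1, the gene of TAZ, showed the largest number of TGFb2h-only peaks among the 10. It is 120.3 kb long, and its peaks numbered 3 in the vehicle list and 8 in the TGFb2h list, of which 6 were TGFb2h-only. By the same rule 80 protein-coding genes, 0.358%, had 6 or more TGFb2h-only peaks. With the TGFb2h list held to the length of the vehicle list by score, 2 of the 6 were left, and 7.92% of protein-coding genes had 2 or more. Neither share takes account of gene length, and the searched span of Wwtr1 was 220.3 kb. The vehicle list contained no peak in the gene beyond its start, whereas 5 of the TGFb2h-only peaks stood in its introns, at 20.1, 24.9, 63.5, 65.5 and 73.9 kb from the start. The peak at 24.9 kb, chr3:57354545-57355242, had the highest score of the 5, at 871, and held a TEAD core. The other intron peaks scored between 550 and 578 (chr3:57359529-57359838, chr3:57316255-57316429, chr3:57314018-57314569 and chr3:57305652-57306120), near the bottom of the list.

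The sixth Wwtr1 peak, chr3:57215011-57215921 with a score of 799, lay 13.8 kb from the start of Tm4sf4 and so was closer to that neighbour than to Wwtr1. The vehicle-only peak chr3:57230203-57230585, with a score of 684, overlapped a coding exon of Tm4sf4. At the Wwtr1 start the peak was 1446 bp long in vehicle and 1876 bp in TGFb2h, with a score of 1000 in both. The TGFb2h peak was the widest of the 90 peaks near the 10 genes in either list.

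The letters below are 200 bp around the midpoint of 3 of these intron peaks, shown because they hold the words searched for and were called in the TGFb2h list alone. Capitals mark the TEAD core (CATTCC, or GGAATG on the other strand) and the AP-1 word (TGACTCA, or TGAGTCA on the other strand), to which dimers of JUN and FOS bind. All are the plus strand of mm9, at chr3:57354793-57354992, chr3:57359583-57359782 and chr3:57314193-57314392.
Wwtr1 intron, 24.9 kb: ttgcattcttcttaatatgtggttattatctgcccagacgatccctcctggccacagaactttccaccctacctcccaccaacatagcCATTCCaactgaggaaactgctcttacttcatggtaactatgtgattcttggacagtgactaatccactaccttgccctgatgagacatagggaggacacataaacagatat
Wwtr1 intron, 20.1 kb: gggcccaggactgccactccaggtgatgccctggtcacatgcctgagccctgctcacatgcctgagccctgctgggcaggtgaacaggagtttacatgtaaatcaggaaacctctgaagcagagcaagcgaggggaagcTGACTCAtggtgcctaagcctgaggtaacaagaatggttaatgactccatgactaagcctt
Wwtr1 intron, 65.5 kb: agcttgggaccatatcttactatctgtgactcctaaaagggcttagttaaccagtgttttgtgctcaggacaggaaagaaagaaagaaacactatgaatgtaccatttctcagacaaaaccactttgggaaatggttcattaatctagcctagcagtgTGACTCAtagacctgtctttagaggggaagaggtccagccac

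**Figure D2:**
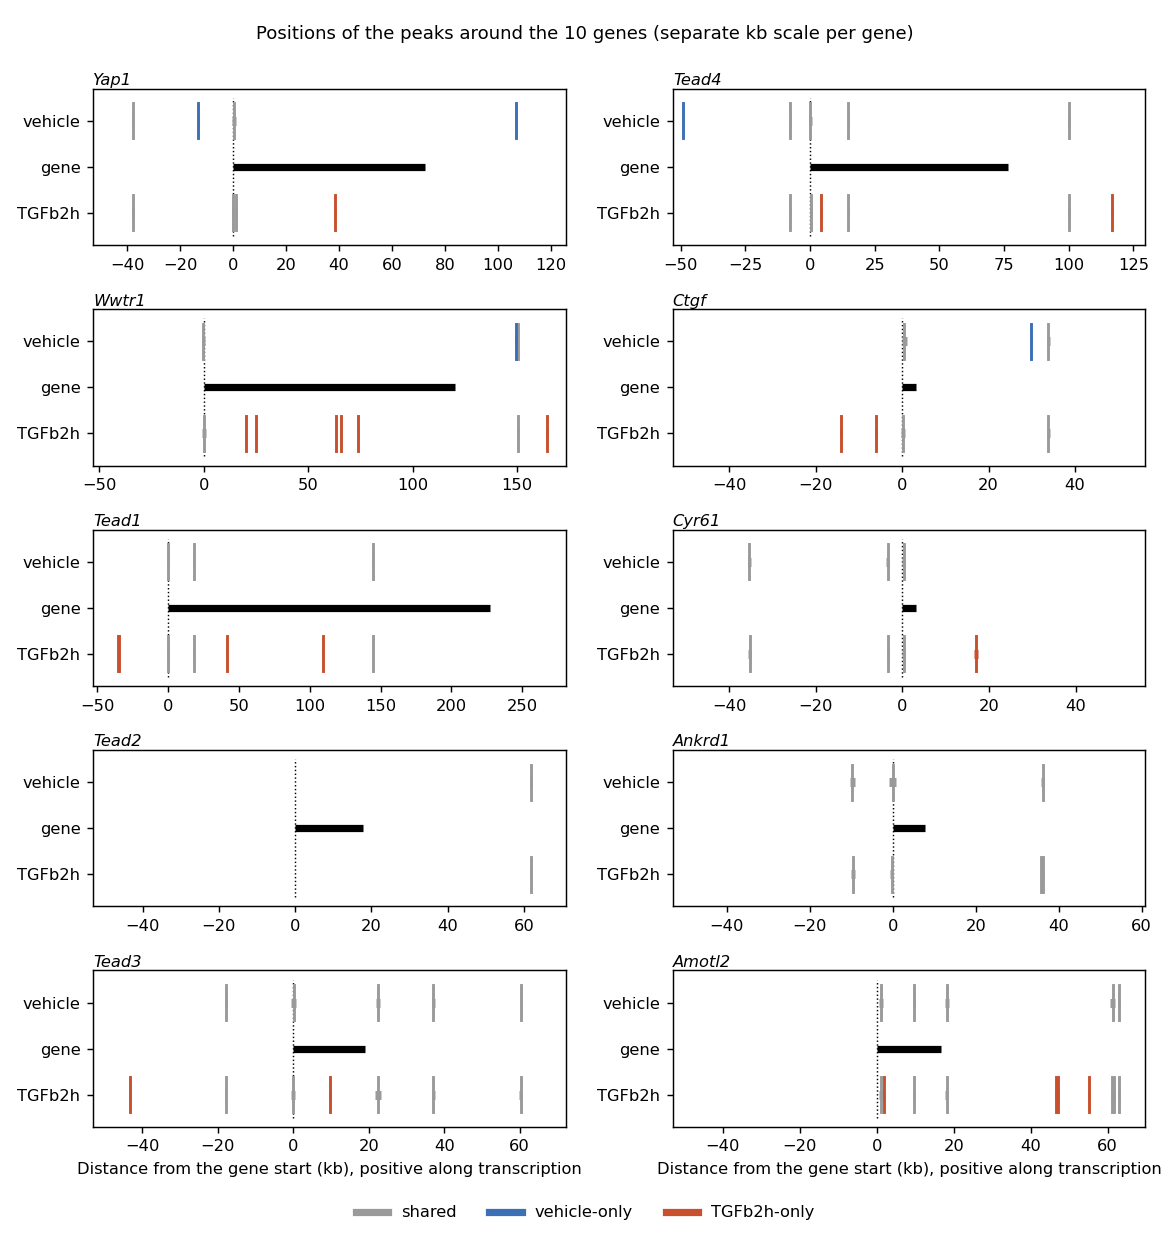
Position of every peak around the 10 genes, with distance from the gene start in kb on the horizontal axis (positive along transcription, scale differing by gene), the gene body as a black bar, vehicle peaks above and TGFb2h peaks below. Thin ticks mark peak midpoints and thick strokes the peak widths, and the 5 TGFb2h-only peaks inside Wwtr1 stand where the vehicle row is empty.

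The TEAD genes encode the factors that recognise the core itself, and together they held 14 vehicle and 21 TGFb2h peaks, with 1 vehicle-only and 8 TGFb2h-only, where 17.6% and 33.7% of the whole lists were condition-only. Tead1, the longest gene at 227.5 kb, had 3 vehicle and 7 TGFb2h peaks. Its TGFb2h-only peaks numbered 4, and 2.44% of protein-coding genes had as many. All 4 were among the TGFb2h peaks kept at equal list length, where 0.747% of protein-coding genes had as many. These shares take no account of length, and Tead1 had a searched span of 327.5 kb, the longest of the 10, over which its TGFb2h-only peaks came to 1.22 per 100 kb, fewer than for Tead3 (1.68) or Ctgf (1.94). The one at +109.2 kb, chr7:119931758-119932364 in an intron, was the only TGFb2h-only peak near the 10 genes with a score of 1000. Another intron peak at +41.3 kb, chr7:119863625-119864649, was the longest of them at 1025 bp, with a score of 915. The remaining pair lay upstream at -35.2 and -35.0 kb inside an intron of 2310014F06Rik, chr7:119787416-119787753 and chr7:119787836-119787908, close together and with equal scores of 679. The second of these was 73 bp long, the shortest peak near any of the genes.

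Tead3 and Tead4 differed less between the lists. Tead3 held 5 vehicle and 7 TGFb2h peaks, and its TGFb2h-only peaks were an intron peak at +9.7 kb with an AP-1 word (chr17:28477809-28478330, score 749) and an intergenic peak at -43.2 kb nearer to Tulp1 (chr17:28530877-28531106, score 621). Tead4 held 5 vehicle and 6 TGFb2h peaks. Its TGFb2h-only peak in the intron at +4.2 kb also carried an AP-1 word and scored 909 (chr6:128246336-128246910), whereas that at +116.7 kb, beyond the gene and nearer to Gm10010, scored 555 (chr6:128133860-128134347). The vehicle-only peak of Tead4 was at -49.0 kb in an intron of Tulp3, with a score of 763 (chr6:128299793-128299971). Both intron peaks are printed here on the plus strand, at chr17:28477969-28478168 and chr6:128246523-128246722, with the AP-1 word in capitals, since each is the TGFb2h-only peak closest to the start of its gene.
Tead3 intron, 9.7 kb: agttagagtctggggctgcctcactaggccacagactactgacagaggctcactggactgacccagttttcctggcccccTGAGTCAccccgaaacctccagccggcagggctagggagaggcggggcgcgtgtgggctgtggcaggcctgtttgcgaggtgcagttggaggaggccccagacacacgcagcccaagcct
Tead4 intron, 4.2 kb: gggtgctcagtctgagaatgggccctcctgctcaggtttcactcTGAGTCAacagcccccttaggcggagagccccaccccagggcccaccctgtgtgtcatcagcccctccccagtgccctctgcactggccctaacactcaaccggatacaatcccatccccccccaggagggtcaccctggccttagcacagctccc

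Tead2 differed from the rest in having no peak at its start in either list. Its single peak in each list was the same place, 61.8 kb from the start, outside the gene and nearer to 1700039E15Rik, with widths of 566 and 567 bp and a score of 1000 in both. The other 9 genes had a peak at their own start in both lists, as did 43.2% of protein-coding genes in the vehicle list and 43.6% in the TGFb2h list.

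The target genes held 14 vehicle and 22 TGFb2h peaks, with 1 vehicle-only and 7 TGFb2h-only, counts to be set beside 17.6% and 33.7% of the whole lists. Ctgf encodes a secreted matrix-associated protein and is widely used to read YAP activity. It had 3 vehicle and 4 TGFb2h peaks, and both TGFb2h-only peaks were upstream, in the non-coding gene Gm15270. That at -14.1 kb, chr10:24300949-24301372, scored 849. That at -5.9 kb, chr10:24309115-24309542, scored 588 and held 2 TEAD cores and an AP-1 word within 200 bp, a combination found in 29 of 7611 TGFb2h-only peaks (0.381%). At equal list length this peak was not kept. The 1 at -14.1 kb was left, and 25.3% of protein-coding genes had at least 1. The vehicle-only peak of Ctgf was at +29.9 kb with a score of 630 (chr10:24345002-24345358), short of a shared peak at +33.8 kb.

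Cyr61, which encodes a secreted protein of the same family, had 3 vehicle and 4 TGFb2h peaks. Its 1 TGFb2h-only peak, chr3:145295490-145296340 with a score of 742, lay at +17.0 kb beyond the end of the gene. Ankrd1, encoding an ankyrin repeat protein found in the nucleus and in muscle sarcomeres, had no condition-only peak. Its count went from 3 to 4 because the vehicle peak by the start of its neighbour Rpp30 was covered by 2 TGFb2h peaks, 1 of them 75 bp long.

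Amotl2, whose product is a junction protein of the angiomotin family that binds YAP, had 5 vehicle and 10 TGFb2h peaks. Of the TGFb2h peaks 4 were TGFb2h-only, which at 3.43 per 100 kb of searched sequence was the highest density among the 10, ahead of Wwtr1 at 2.72. As many as 4 were found for 2.44% of protein-coding genes. At equal list length 1 of the 4 was left, and 25.3% of protein-coding genes had at least 1. The first, chr9:102620625-102620988 with a score of 555, was a promoter peak in an untranslated exon. The next pair lay at +46.6 and +47.1 kb (chr9:102665288-102665883, score 566, and chr9:102665964-102666241, score 551), and the last at +55.0 kb with an AP-1 word (chr9:102673899-102674157, score 842). A vehicle peak of 1228 bp at +61.3 kb was covered by 2 shorter TGFb2h peaks. The shared peak at +63.0 kb held 3 TEAD cores within 200 bp in both lists, as did 12 of 17784 vehicle peaks (0.0675%) and 11 of 22600 TGFb2h peaks (0.0487%). That peak and its neighbour at +61.3 kb were nearer to the start of Ryk than to that of Amotl2.

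The Ctgf peak at -5.9 kb and the Amotl2 peaks at +63.0 and +55.0 kb are printed because they carry the cores and the AP-1 word just described, in capitals on the plus strand. Their windows are chr10:24309228-24309427, chr9:102681914-102682113 and chr9:102673928-102674127.
Ctgf upstream, -5.9 kb: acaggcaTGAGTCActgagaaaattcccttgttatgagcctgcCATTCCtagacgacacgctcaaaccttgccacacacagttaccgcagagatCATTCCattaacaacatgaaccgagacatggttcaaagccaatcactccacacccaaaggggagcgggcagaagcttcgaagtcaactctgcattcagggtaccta
Amotl2 downstream, 63.0 kb: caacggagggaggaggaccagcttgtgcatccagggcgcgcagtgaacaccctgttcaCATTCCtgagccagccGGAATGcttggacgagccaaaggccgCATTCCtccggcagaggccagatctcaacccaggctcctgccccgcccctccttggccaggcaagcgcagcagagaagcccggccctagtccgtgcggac
Amotl2 downstream, 55.0 kb: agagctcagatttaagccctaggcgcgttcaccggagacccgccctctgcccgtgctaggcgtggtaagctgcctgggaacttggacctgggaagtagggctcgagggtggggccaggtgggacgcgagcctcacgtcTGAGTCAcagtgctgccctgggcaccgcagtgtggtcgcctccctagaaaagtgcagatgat

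The TEAD core was common just before the gene starts. It occurred within the 250 bp before the start in 7 of the 9 genes searched, all but Tead2 and Tead4, beside 11.4% of the 22350 protein-coding genes. Among the protein-coding genes with a vehicle peak at their start the share was 9.94%. Ankrd1 held 2 cores, at 210 and 123 bp, and 0.904% of genes held at least 2. The single cores lay 141 bp before Yap1, 136 bp before Wwtr1, 196 bp before Tead1, 182 bp before Tead3, 103 bp before Cyr61 and 64 bp before Amotl2. None of the 9 windows held the AP-1 word, which 3.86% of genes held there. With the longer word ACATTCC in place of the core, 2 of the 9 genes (Yap1 and Cyr61) and 2.86% of all genes held a match. These genes were chosen as TEAD targets and partners known from earlier work, so the words say nothing of the treatment.

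Most of these cores lay in chromatin called as open under both conditions. Of the 8 cores 7 were inside a vehicle peak and 7 inside a TGFb2h peak, and 6 of the 7 genes had at least 1 core inside a peak of both lists. The Amotl2 core was inside no peak, because its start peak began further along, by the start of other Amotl2 transcripts. Over the whole interval, all 8 vehicle start peaks of the genes searched held a core, 21 cores in all or 2.09 per kb. Among all shared promoter peaks of that list 31.4% held a core, at 0.414 per kb, and those peaks were shorter, with a median of 918 bp against 1342 bp. In the TGFb2h list 8 of the 9 shared start peaks held a core, beside 26.4% of all shared promoter peaks, and the exception was the Yap1 peak of 481 bp.

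The 250 bp before the starts of 3 target genes follow, read on the strand of each gene so that the last base adjoins the start, with TEAD cores in capitals. The mm9 positions are chr3:145312950-145313199 on the minus strand for Cyr61, chr19:36194335-36194584 on the minus strand for Ankrd1 and chr9:102618752-102619001 on the plus strand for Amotl2.
Cyr61: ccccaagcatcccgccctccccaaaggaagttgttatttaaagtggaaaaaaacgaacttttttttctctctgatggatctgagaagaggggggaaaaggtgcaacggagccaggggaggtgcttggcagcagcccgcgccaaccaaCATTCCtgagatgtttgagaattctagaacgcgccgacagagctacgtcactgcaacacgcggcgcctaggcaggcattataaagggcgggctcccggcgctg
Ankrd1: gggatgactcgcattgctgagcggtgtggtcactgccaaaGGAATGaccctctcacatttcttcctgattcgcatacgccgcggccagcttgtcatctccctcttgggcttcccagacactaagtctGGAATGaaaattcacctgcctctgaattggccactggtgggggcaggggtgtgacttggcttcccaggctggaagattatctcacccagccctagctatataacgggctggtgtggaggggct
Amotl2: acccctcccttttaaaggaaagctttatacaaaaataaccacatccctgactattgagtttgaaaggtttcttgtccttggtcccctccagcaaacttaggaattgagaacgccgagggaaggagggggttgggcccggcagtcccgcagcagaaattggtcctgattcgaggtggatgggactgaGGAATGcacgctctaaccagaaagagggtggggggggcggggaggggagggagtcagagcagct

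**Figure D3:**
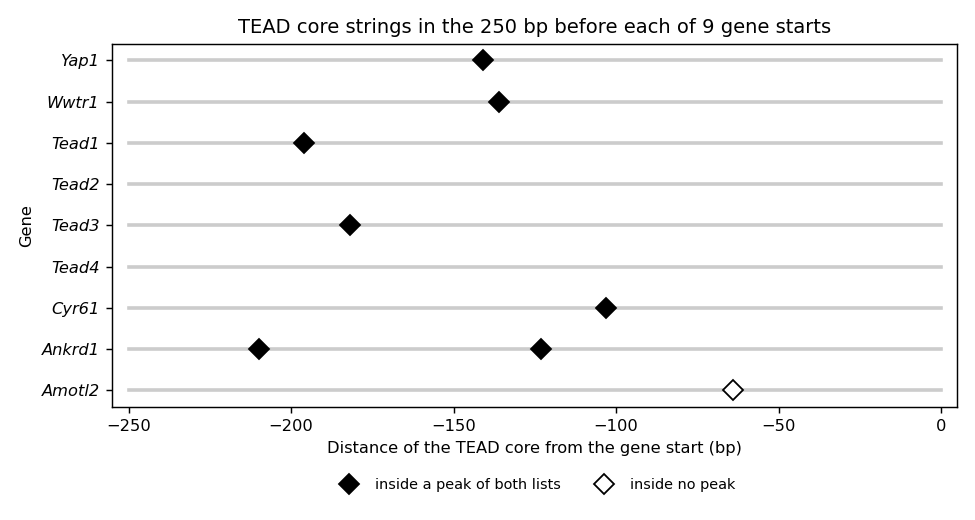
Distance of each TEAD core from the gene start in bp (horizontal axis) for the 9 genes searched, with symbols filled where the core was inside a peak of both lists and open where it was inside none. Ankrd1 carries 2 cores, while Tead2 and Tead4 carry none.

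The peaks found in both lists were compared where 1 vehicle peak overlapped exactly 1 TGFb2h peak and the reverse. There were 27 such pairs near the 10 genes. At the starts of Ankrd1 and Ctgf the peak was much narrower in the TGFb2h list, at 1562 and 728 bp for Ankrd1 (ratio 0.466) and 1290 and 784 bp for Ctgf (ratio 0.608). The start peaks of Tead3 (1344 and 1052 bp), Tead4 (968 and 733 bp), Tead1 (1340 and 1260 bp) and Amotl2 (975 and 923 bp) were also narrower, whereas that of Cyr61 (815 and 846 bp) was nearly level and that of Wwtr1 was wider. Over the 27 pairs the TGFb2h peak was the narrower in 17 (63.0%, Wilson 95% interval 44.2 to 78.5) with a median ratio of 0.940. It was narrower in 7 of 13 promoter pairs (53.8%, 29.1 to 76.8), beside 75.9% of all promoter pairs. Among distal pairs it was narrower in 10 of 14 (71.4%, 45.4 to 88.3), beside 61.9%. Both intervals contained the share of the whole lists, and no difference was tested. The promoter pairs include starts of neighbouring genes, such as Fance and Rpl10a near Tead3. Over all 13978 pairs of the lists the TGFb2h peak was narrower in 70.9%, with a median ratio of 0.906.

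Scores at the start peaks were at the ceiling of 1000 in both lists for every gene compared except Tead3, at 1000 and 998. In the whole lists 6492 of 9047 promoter pairs were at 1000 in both. Away from promoters the scores spread out. Of the 14 distal pairs 10 had the higher score in the TGFb2h list, 2 the lower and 2 were level at 1000. In the whole lists 2228 of 4931 distal pairs had the higher score in TGFb2h, 1544 the lower, and 1159 were equal. The Tead1 intron peak at +144.5 kb went from 842 to 1000, the Ctgf peak at +33.8 kb from 748 to 1000, the Cyr61 peak at -35.4 kb from 829 to 1000 and the Amotl2 peak at +63.0 kb from 841 to 1000. The deposited scores were not scaled between the lists, so these differences are neither amounts of accessibility nor shifts in list position. The 2 distal pairs with the lower score stood no lower in the list. For Tead3 (699 and 676) 21.6% of vehicle and 24.1% of TGFb2h peaks scored lower, and for Cyr61 (934 and 907) 42.2% and 48.3%. A score of 1000 stood above 46.8% of vehicle and 55.7% of TGFb2h peaks.

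**Figure D4:**
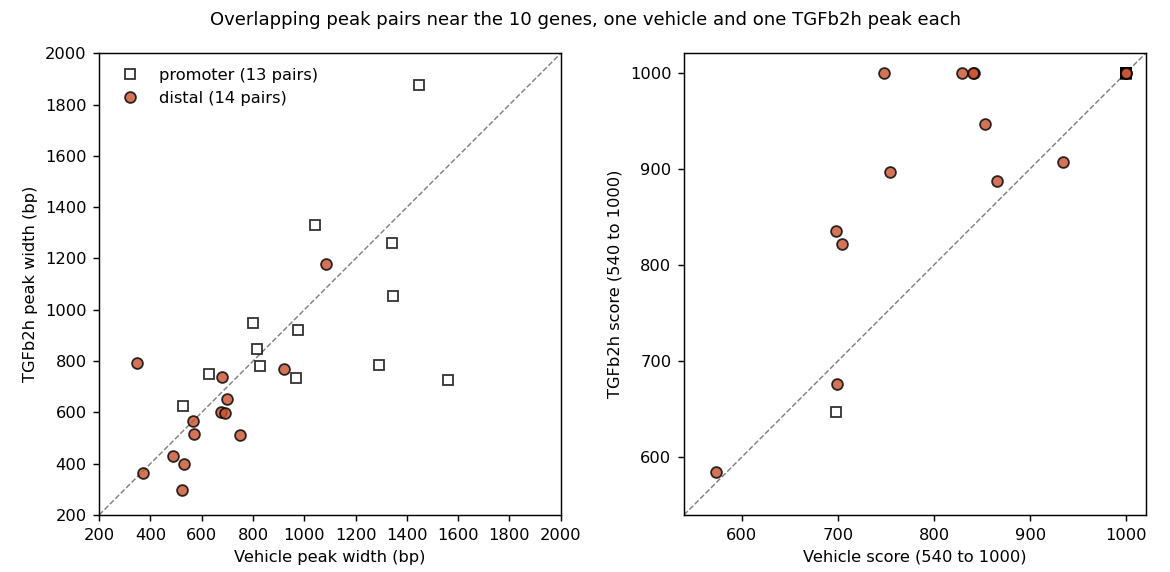
Width in bp (left) and deposited score (right) of the 27 pairs of overlapping peaks near the 10 genes, vehicle on the horizontal and TGFb2h on the vertical axis, with promoter pairs as open squares and distal pairs as filled circles. Points on the dashed line are equal in both lists, and several pairs coincide at a score of 1000.

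The words were then counted in the 200 bp around the midpoint of every peak. Near the 10 genes 7 of 35 vehicle peaks (20.0%, Wilson 95% interval 10.0 to 35.9) and 11 of 55 TGFb2h peaks (20.0%, 11.6 to 32.4) held a TEAD core, beside 9.95% and 11.1% of the whole lists. These shares depended on the word and the window. The longer word ACATTCC was in 4 vehicle and 3 TGFb2h peaks, beside 2.63% and 3.30% of the whole lists, and over whole intervals the core was in 19 and 24, beside 33.5% and 29.9%. The AP-1 word was in 5 of 35 vehicle peaks (14.3%, 6.26 to 29.4) and 12 of 55 TGFb2h peaks (21.8%, 12.9 to 34.4), beside 8.99% and 15.1%. Among the 20 distal TGFb2h-only peaks 7 held the AP-1 word, beside 27.2% of all distal TGFb2h-only peaks, and 2 held a TEAD core, beside 14.9%. The 7 were spread over 5 genes, with 3 at Wwtr1 and 1 each at Tead3, Tead4, Ctgf and Amotl2. None of the 5 vehicle-only peaks held either word, where 11.9% of all vehicle-only peaks held the core and 6.52% the AP-1 word. The SMAD palindrome GTCTAGAC was in none of the 90 windows, and in 0.163% of all vehicle and 0.332% of all TGFb2h peaks. Over whole intervals it was in 1 of the 90 peaks, the TGFb2h-only peak chr3:57215011-57215921 of Wwtr1, beside 0.652% of vehicle and 0.836% of TGFb2h peaks.

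Other genes of the pathway were counted by the same rule, 37 in all and each with a peak in at least 1 list. Of 12 kinases and adaptors that restrain YAP, such as the LATS and MST kinases, 2 had more TGFb2h peaks, 6 had equal numbers and 4 had fewer, beside 43.5%, 39.4% and 17.1% of genes with a peak. They held 44 vehicle and 41 TGFb2h peaks, of which 11 and 8 were condition-only, beside 17.6% and 33.7% of the whole lists. Taok1, a kinase that acts on the MST kinases, went from 6 to 2, the largest drop in any list. Of 16 further target genes 12 had more TGFb2h peaks, 2 had equal numbers and 2 had fewer, for 56 vehicle and 89 TGFb2h peaks, of which 5 and 40 were condition-only, read against the same list shares. Asap1 went from 4 to 9, Nuak2 from 4 to 9, F3, the gene of tissue factor, from 1 to 6, Tgfb2, which encodes a TGFβ ligand, from 4 to 8, and Nt5e from 0 to 4.

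Of 5 junction partners of YAP and LATS 3 had more and 2 had fewer TGFb2h peaks, with 18 peaks in vehicle and 21 in TGFb2h, of which 5 and 9 were condition-only. Of 4 TEAD cofactors of the VGLL family 2 had more and 2 had equal numbers, with 10 and 14 peaks, of which 2 and 6 were condition-only. Both lists are to be read against the 43.5% of genes with a peak that had more TGFb2h peaks, the 39.4% with equal numbers and the 17.1% that had fewer. Their condition-only counts stand beside 17.6% of all vehicle and 33.7% of all TGFb2h peaks. The median difference per gene was 0 for the kinases and adaptors, 1 for the junction partners, 0.5 for the cofactors and 2 for the further targets, beside 1 for the 10 genes and 0 for all protein-coding genes. The difference between the lists of genes was not tested. A TEAD core before the start was found in 3 of the 16 further targets, 2 of the 12 kinases and adaptors, 3 of the 5 junction partners and 1 of the 4 cofactors, beside 11.4% of all protein-coding genes.

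**Figure D5:**
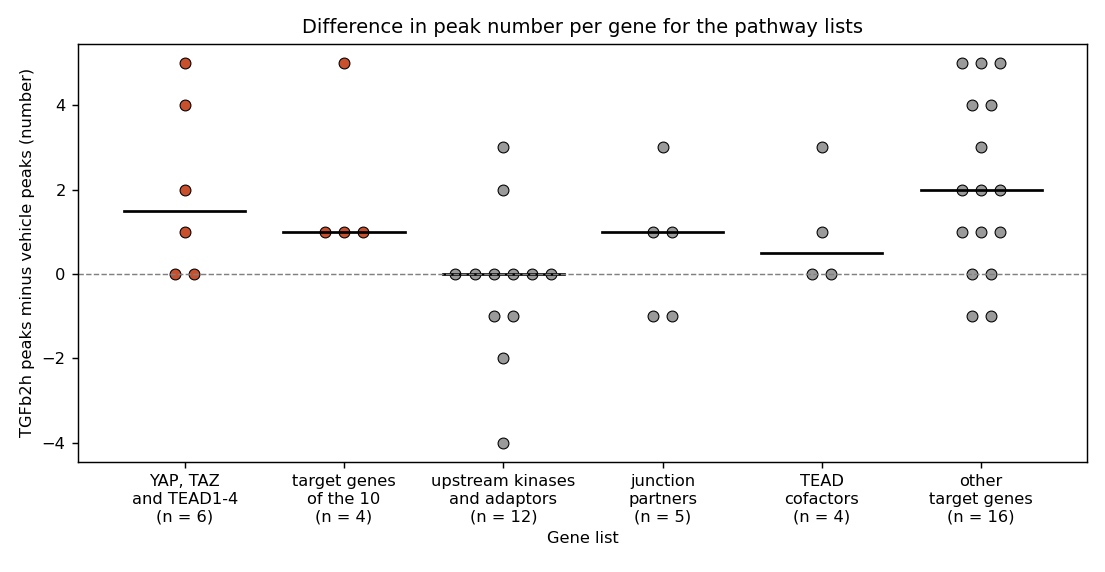
TGFb2h minus vehicle peak number per gene (vertical axis) for the 10 genes, in 2 groups at the left, and for 4 lists of other pathway genes. Each point is a gene and each horizontal bar the median, which is 0 for the upstream kinases and adaptors and 2 for the other target genes.

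The TGFb2h list was the longer of the 2. It was therefore also held to its 17784 peaks of highest score, which kept all those above 655 and 21 of the 39 at that score, ties being broken by position. The 10 genes then had 35 vehicle and 40 TGFb2h peaks, with 7 vehicle-only and 11 TGFb2h-only, and all 11 were distal. In the whole lists at this length 23.9% of vehicle and 22.8% of TGFb2h peaks were condition-only. Of the genes 5 had more and 2 had fewer TGFb2h peaks, beside 23.5% and 30.6% of protein-coding genes with a peak. With each list held to peaks at or above its own median score, 16 vehicle and 22 TGFb2h peaks were left near the 10 genes, and 4 genes had more TGFb2h peaks, beside 30.5% of protein-coding genes with a peak at that score.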

How the data were processed

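DNaseI-seq peaks of NMuMG cells were compared between 1 vehicle and 1 TGFb2h list, grouped by their titles. According to the methods, the authors mapped reads to mm9 and used their ATAC-seq pipeline with settings adapted to DNaseI-seq, which are not given in the sources used here. The submitters' processing notes name MACS2 2.1.2 and deepTools. How the filter on reproducibility was applied to DNaseI-seq, and how duplicates were pooled, is not stated, and read depth is not in the lists. The authors' reporting summary lists more reads for vehicle than for TGFb2h.

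The deposited score of each row is a whole number given by the authors, from 540 to 1000. It was at 1000 in 53.2% of vehicle and 44.3% of TGFb2h peaks, which cannot be ranked among themselves. Intervals were repeated over rows (3.96 and 3.03 rows per interval, from 70449 and 68542 rows) and were counted once. Median widths were 770 bp for vehicle and 621 bp for TGFb2h.

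Coordinates are 1-based on mm9 (NCBIM37) with GENCODE M1 gene models. Ajuba is listed there as Jub, and the protein-coding Tead1 row was used. Peaks sharing at least 1 bp were called shared. Promoter peaks lay within 1000 bp of any transcript start. TEAD, AP-1 and SMAD words were searched as exact strings on both strands, in 200 bp around peak midpoints and 250 bp before gene starts, where 1 of the 10 genes is not reported here. Shares have Wilson 95% intervals. Python 3.11.15, numpy 2.4.6, pandas 2.3.3 and scipy 1.17.1 were used, and the counting was tested on simulated data.

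All 10 genes, every condition-only peak and every start peak were to be named, with the 6 other pathway genes of largest difference. The genes and lists were chosen with earlier results of these data known. The search before gene starts, the marker genes and the printed sequences were chosen after values were seen. Alternatives varied the peak definition, overlap, score, distance to the gene, promoter and words.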

Additional observations from a re-analysis of the deposited data

How the results depend on the processing

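No paired analysis was possible because only 1 list was analysed for vehicle and 1 for TGFb2h, and nothing was tested between them. Of 96 alternative values, 52 stayed within 1.5 times the value reported, or within its interval for the width share, and 44 did not. Counting every deposited row gave 145 vehicle and 160 TGFb2h rows near the genes, 10 vehicle-only and 49 TGFb2h-only (8 and 47 distal), with 4 genes having more and 4 having fewer TGFb2h rows. A reciprocal overlap of 50% gave 9 vehicle-only peaks. Joining neighbours and dropping peaks under 150 bp left 1 gene with fewer TGFb2h peaks. At or above the median score there were 16 vehicle and 22 TGFb2h peaks, 0 vehicle-only and 6 TGFb2h-only (0 and 6 distal), and 4 genes had more. At equal list length there were 11 TGFb2h-only peaks, 11 of them distal, with 5 genes having more and 2 fewer. Within gene bodies alone there were 13 vehicle and 25 TGFb2h peaks, 0 vehicle-only and 11 TGFb2h-only (0 and 9 distal). Within 10 kb there were 18 and 31, with 0 and 12 condition-only (0 and 10 distal). Within 100 kb the vehicle list had 57 peaks. Within 50 kb of the start there were 3 vehicle-only and 13 distal TGFb2h-only peaks. Searching whole intervals found the TEAD core in 19 vehicle and 24 TGFb2h peaks and the AP-1 word in 9 and 22. A window of 300 bp found the core in 11 vehicle peaks. The longer word ACATTCC was in 4 vehicle and 3 TGFb2h peaks, and before the starts of 2 genes, the last chosen after seeing the data. The cause of these changes was not tested beyond what each setting removes. Depth and replicate spread, which the lists do not hold, limit every count.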
